A study of Mus musculus with 8 samples.

Results

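WNT genes were compared between 4T1-Sca1+ and 4T1-Sca1- cells, the fractions of a mouse mammary carcinoma line that carry or lack the surface protein SCA1 (stem cell antigen 1, the product of Ly6a). The members were taken by name. They are the protein-coding genes with a Wnt, Fzd, Sfrp or Dkk symbol and a number, together with the LRP co-receptors Lrp5 and Lrp6, the R-spondin receptors Lgr4, Lgr5 and Lgr6, the ligases Rnf43 and Znrf3, and Porcn, Wls, Notum, Ctnnb1, Apc, Axin1, Axin2, Nkd1, Nkd2, Lef1, Tcf7, Tcf7l1 and Tcf7l2. This rule gave 57 genes. Of these, 45 had a row among the 16341 genes counted, 12 were not analysed here, and 35 passed the filter on low counts that left 11717 genes for the test.

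RNA-seq was made from 4 libraries of each fraction, 8 in all. Both fractions came from the parental 4T1 line, had no treatment named in the labels, and were labelled CD45-, that is without the common leukocyte antigen. A stain for SCA1 and magnetic columns separated them. 4T1 is 1 transplantable cell line, so both fractions are subpopulations of it. The labels name the parental line as the source, whereas the extraction note speaks of stained tumor. The study grew its 4T1 tumors in female BALB/c mice. Nothing says that the 4 replicates of a fraction were separate sorts or cultures, so the p-values below measure the spread between these libraries, which may be technical.

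WNT proteins are secreted lipid-modified ligands that bind a Frizzled receptor together with LRP5 or LRP6. In the canonical branch this stops a complex built on AXIN and APC from degrading beta-catenin (Ctnnb1), which then enters the nucleus and acts with TCF/LEF factors, whereas other WNT proteins, WNT5A and WNT11 among them, are best known for branches that do not use beta-catenin. The pathway is required for mammary gland development and for the stem cells of many epithelia, and overexpression of Wnt1 in the mammary gland causes tumors in mice.

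Total counts ran from 13561804 to 16968215 per library. Ly6a, the gene behind the sort, had 145 to 193 normalized counts in 4T1-Sca1+ against 0 to 4.11 in 4T1-Sca1- libraries, which checks the labels and is no finding. Here a normalized count is a gene's read count divided by the size factor of its library, and the spread given with it is the SD of 4 libraries. The 9 epithelial markers summed to 60742 to 67065 normalized counts in 4T1-Sca1+ libraries against 63257 to 68361. Within that list Krt8 and Krt18 were higher, and Cdh1 (log2 fold change -0.69), Cldn4 (-0.62), Cldn3 (-0.37) and Krt7 (-0.20) were lower in 4T1-Sca1+ cells. Of 18 leukocyte markers, 12 were counted and 8 of these had at most 10 counts in every library. The defining marker Ptprc (CD45) had 1.83 to 3.50 normalized counts against 0 to 1.11. The other 4 leukocyte markers, Csf1r, Cd68, S100a8 and Cd74, were tested and all higher in 4T1-Sca1+ cells, where 31.3% of all genes were higher. S100a8 had 33 to 50 against 3 to 10 counts and passed the low-count filter only through the 4T1-Sca1+ group. It is also in the study's SCA1-positive signature, which was chosen on these libraries. The leukocyte list summed to 414 to 479 against 231 to 274. Fibroblast markers summed to 635 to 671 against 395 to 468, most of it Pdgfra, with Col1a1 and Pdgfra higher and Postn not past the threshold. Below the filter, total counts were 49 against 4 for Dcn and 27 against 1 for Pdgfrb, both without overlap. They were 19 against 18 for Col1a2 and 4 against 11 for Fap. Endothelial markers summed to 34.7 to 43.9 against 43.4 to 66.2, most of it Tie1, which was lower. Below the filter, Pecam1 was higher without overlap (21 against 4 counts), whereas Esam (24 against 32) and Cdh5 (3 against 7) had fewer counts. Basal markers, which were nearly all Krt14, summed to 560 to 610 against 633 to 711. Krt14 was lower and Krt17 not past the threshold. Below the filter, total counts were 20 against 6 for Trp63 and 11 against 0 for Acta2, both higher without overlap. They were 3 against 0 for Krt5, 11 against 7 for Myh11, 3 against 6 for Cnn1 and 9 against 10 for Oxtr. The leukocyte and fibroblast sums moved with the genes reported below as higher in 4T1-Sca1+ cells, and their part in those results was not tested. In such bulk libraries, fewer cells of a type and less RNA per cell cannot be told apart.

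Of the 35 WNT genes tested, 17 were higher and 7 lower in 4T1-Sca1+ than in 4T1-Sca1- cells, and 11 did not pass the threshold (edgeR quasi-likelihood test, Benjamini-Hochberg adjusted p under 0.05 over all tested genes). Those called made up 68.6% of the WNT genes tested, beside 61.5% of all genes tested in either direction, 31.3% higher and 30.2% lower. With libraries scaled by their totals alone, the split was 18 higher and 4 lower. A change of at least 1.5-fold was called for 12 genes higher (Wnt5a, Wnt6, Wnt11, Porcn, Notum, Sfrp1, Fzd1, Fzd2, Fzd7, Lgr6, Rnf43 and Lef1) and 2 lower (Wnt7a and Wnt10a), where 15.7% of all genes passed that mark, 11.7% higher and 4.08% lower. Wnt5a, Wnt6, Wnt11, Rnf43 and Lef1 had fewer than 10 counts in at least 1 4T1-Sca1- library and passed the low-count filter only through the 4T1-Sca1+ group, where they are high, so these 5 calls depend on their direction and are no support for the count. With at least 10 counts asked of every library, these 5 dropped out, and 12 of the remaining 30 WNT genes were higher and 6 lower. For 20 of the 35 WNT genes, all of these 5 among them, the ranges of the fractions were apart, beside 54.7% of all genes. The median log2 fold change of the 35 was 0.16, and that of all tested genes was 0.0074. The median absolute log2 fold change was 0.33 and 0.24. The same 5 genes are in the 68.6%, the 20 and the medians of the 35. These figures are therefore no support for a difference from all genes.

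**Figure D1:**
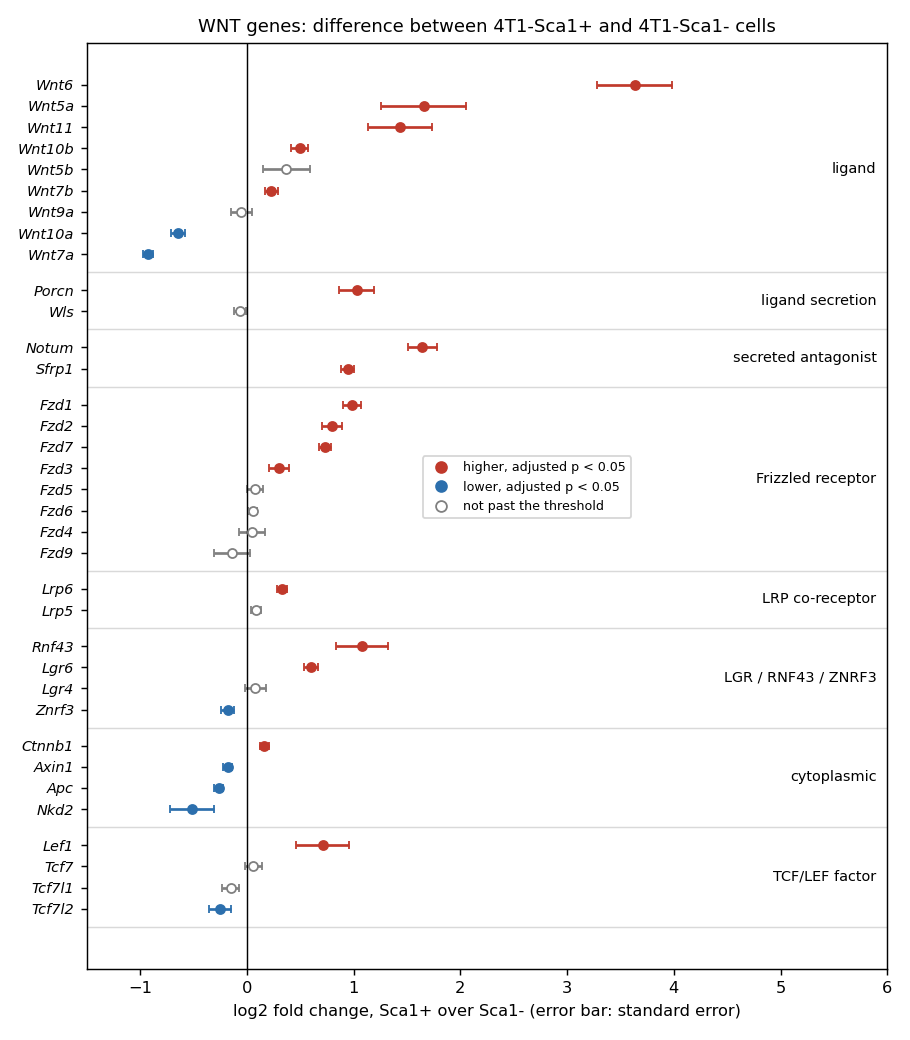
Log2 fold change of each of the 35 WNT genes tested, 4T1-Sca1+ over 4T1-Sca1- (x axis; positive is higher in 4T1-Sca1+), ordered by role (y axis). Points are edgeR estimates from 4 libraries a group and bars are standard errors; filled points passed an adjusted p of 0.05. Wnt6 stands at 3.63, Wnt7a at -0.92, and no Frizzled gene was called lower, with Fzd9 at -0.14.

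The ligands moved in both directions, and the most abundant one changed least among those called. Of 19 ligand genes in the rule, 14 were counted and 9 tested, and 5 were higher, 2 lower and 2 (Wnt5b and Wnt9a) not called. That is 77.8% called, beside 61.5% of all genes. Wnt5a, Wnt6 and Wnt11 among the 5 passed the low-count filter only through the 4T1-Sca1+ group. The split is therefore no support for a direction. Per kilobase of exon, a scale on which genes of different length can be compared, Wnt7b led in both fractions with 1034 ± 87.0 normalized counts in 4T1-Sca1+ and 889 ± 67.8 in 4T1-Sca1- cells (SD, n = 4). Wnt10a and Wnt7a followed at 363 ± 33.4 and 309 ± 15.2 in 4T1-Sca1+ cells, and at 572 ± 48.8 and 592 ± 14.1 in 4T1-Sca1- cells, where the pair lay within 1 SD of each other. Wnt10b stood at 146 ± 15.6 and 104 ± 7.19 and Wnt9a at 42.3 ± 1.67 and 44.2 ± 5.31. The remaining ligands stood at or below 14.0 in each fraction.

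Wnt7a and Wnt10a, which both can signal through beta-catenin, were the ligands that fell. Wnt7a (ENSMUSG00000030093, chr6:91363981-91411363) had 1036, 944, 1006 and 938 normalized counts in 4T1-Sca1+ replicates 1 to 4, and 1880.4, 1939, 1833 and 1862 in 4T1-Sca1- replicates 1 to 4. Each 4T1-Sca1- library lay above each 4T1-Sca1+ library, and the log2 fold change was -0.92 ± 0.05 (SE; adjusted p = 3.3e-11, edgeR). The study placed Wnt7a in its SCA1-negative signature, which was chosen on these libraries, so that membership is not independent evidence of its direction. Wnt10a (ENSMUSG00000026167, chr1:74791516-74804179) had 895, 846, 1013 and 832 normalized counts against 1359.9, 1567, 1439 and 1285. The groups again did not overlap, with a log2 fold change of -0.64 ± 0.07 (adjusted p = 2.7e-07, edgeR).

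Wnt7b, the close paralog of Wnt7a, did not share this direction. It had 4761, 4885, 5695 and 4912 normalized counts in 4T1-Sca1+ and 4273, 4842, 4098 and 4212 in 4T1-Sca1- libraries. 4T1-Sca1- replicate 2 lay above 4T1-Sca1+ replicate 1, so the groups overlapped. The log2 fold change was 0.23 ± 0.06 (adjusted p = 0.0029, edgeR), and with offsets corrected for GC content it was 0.018 (adjusted p = 0.67), so the call rests on that choice. The median GC content of the exons was 53.3% for the tested WNT genes and 49.8% for all tested genes. An antisense gene, AU022754, overlaps Wnt7b and the library kit does not mark strand, but it held 94 counts over all libraries.

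Wnt6 showed the largest fold among the 35 genes, at a low level. Wnt6 (ENSMUSG00000033227, chr1:74771892-74785322) had 40.2, 25.6, 32.9 and 23.6 normalized counts in 4T1-Sca1+ and 2.87, 2.05, 2.23 and 2.28 in 4T1-Sca1- libraries. Its fitted log2 fold change was 3.63 ± 0.35 (adjusted p = 1e-07, edgeR), for a gene that entered the test only through its 4T1-Sca1+ libraries. No 4T1-Sca1- library held more than 3 reads of it, so the ratio is better given with its counting error: 130 against 9 counts, a ratio of 12.9 after scaling, with a 95% counting interval of 6.58 to 28.8. Wnt6 and Wnt10a lie side by side on the same strand of chromosome 1, and the former rose where the latter fell.

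Wnt11 and Wnt5a were also higher at low counts. Wnt11 (chr7:98835112-98855195) had 16.5, 15.8, 19.0 and 14.9 normalized counts against 3.82, 6.16, 7.79 and 6.85, a log2 fold change of 1.44 ± 0.30 (adjusted p = 4.4e-04, edgeR). That came from 70 and 23 counts, a ratio of 2.72 with a counting interval of 1.67 to 4.56. An antisense gene, Gm8398, shares 9.26% of the 50-base stretches of the longest Wnt11 transcript, and reads of the pair cannot be told apart without strand. Wnt5a (chr14:28504750-28527448) had 13.7, 9.86, 17.0 and 13.1 normalized counts against 8.60, 2.05, 2.23 and 3.42, a log2 fold change of 1.65 ± 0.40 (adjusted p = 0.0017, edgeR). The groups did not overlap, but 4T1-Sca1- replicate 1 lay far above its own group, and without it the log2 fold change was 2.34. With 57 and 16 counts, the ratio was 3.18 (counting interval 1.80 to 5.93).

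Wnt10b was higher, with 496 ± 53.1 against 355 ± 24.5 normalized counts (log2 fold change 0.49 ± 0.08, adjusted p = 3.3e-05, edgeR). Its neighbour on chromosome 15, Wnt1, did not reach the filter, with 38 counts in the 4T1-Sca1+ and 10 in the 4T1-Sca1- libraries. The ratio for Wnt1 was 3.39 with a counting interval of 1.66 to 7.63, and its groups did not overlap, at 6.98 to 10.5 and 0 to 4.57 normalized counts. Wnt5b (23.3 ± 2.78 against 18.2 ± 3.77) and Wnt9a (141 ± 5.58 against 147 ± 17.7) did not pass the threshold. The other ligands counted had next to no reads. Wnt2b had 5 and 1 counts in all, Wnt3 5 and 0, Wnt4 3 and 1, and Wnt8a 1 and 1, each with at most 3 in any library, which is too shallow to show a difference. Wnt2, Wnt3a, Wnt8b, Wnt9b and Wnt16 were not analysed here.

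The shares of the ligands in their sum differed between the fractions without overlap for the abundant Wnt7b, Wnt7a, Wnt10a and Wnt10b. They also did so for the scarce Wnt6, Wnt11, Wnt5a, Wnt5b and Wnt1. A share also moves when other ligands move, and the normalized counts of Wnt7b and Wnt5b themselves overlapped. By normalized count, 6 of the 9 ligands tested had groups apart, beside 54.7% of all genes. Wnt6, Wnt11 and Wnt5a among the 6 passed the low-count filter only through the 4T1-Sca1+ group. Summed per kilobase, the ligands reached 1928 ± 136 normalized counts in 4T1-Sca1+ and 2214 ± 129 in 4T1-Sca1- cells, and the groups overlapped (1844 to 2132 against 2117 to 2404). Wnt7b made up 53.6% ± 1.11 of that sum in 4T1-Sca1+ and 40.1% ± 1.07 in 4T1-Sca1- cells. Wnt7a took 16.1% ± 1.07 against 26.8% ± 1.00, and Wnt10a 18.8% ± 0.62 against 25.8% ± 1.04. Wnt10b took 7.56% ± 0.66 against 4.72% ± 0.38. Wnt6 took 0.72% ± 0.18 against 0.049% ± 0.0088.

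**Figure D2:**
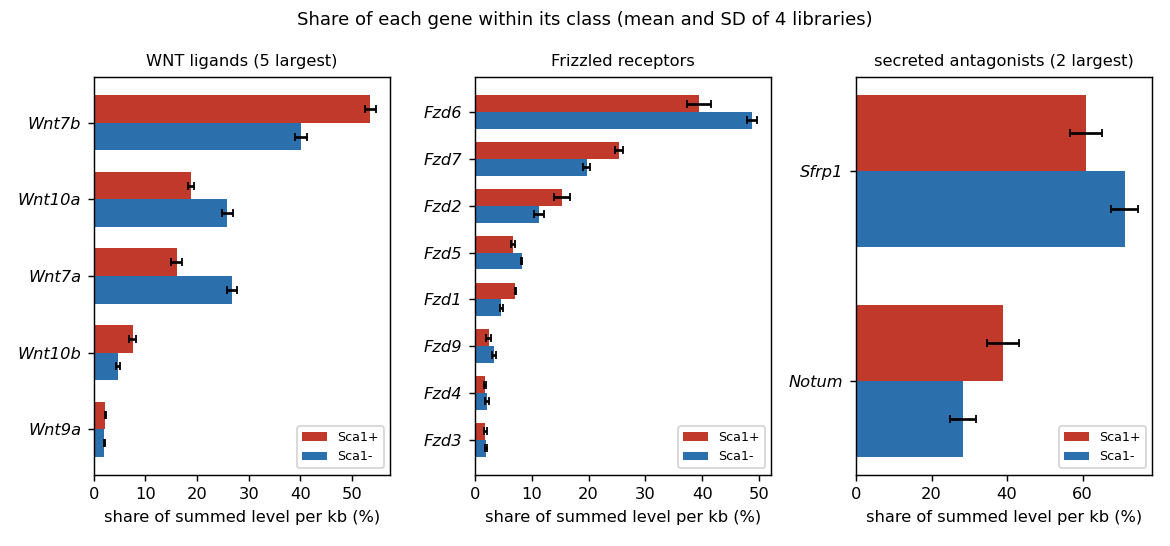
Share of each gene in the summed normalized count per kilobase of exon of its class (x axis, percent) in 4T1-Sca1+ and 4T1-Sca1- libraries, for the 5 most abundant ligands, all 8 Frizzled genes and the 2 abundant antagonists. Bars start at 0 and show the mean of 4 libraries with the SD; Wnt7b takes 53.6% against 40.1% of the ligand sum and Fzd6 39.4% against 48.8% of the Frizzled sum. A share also moves when other genes of its class move: Fzd6 itself was not called, and the counts of Wnt7b overlapped between the groups.

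Porcn and Wls, needed to make and release WNT ligands, did not move together. Porcn encodes the acyltransferase that attaches the lipid to WNT proteins, and its product is the target of drugs that block WNT secretion. It had 129.8, 140.0, 139 and 154 normalized counts in 4T1-Sca1+ and 43.0, 60.6, 87.9 and 91.3 in 4T1-Sca1- libraries. Every 4T1-Sca1+ library lay above every 4T1-Sca1- library although the latter spread widely, and the log2 fold change was 1.03 ± 0.16 (adjusted p = 3.3e-05, edgeR). The study lists Porcn among its shared upregulated genes, chosen in part on these libraries, so this is not independent evidence. Wls, the carrier that takes lipid-bearing WNT proteins to the cell surface, had 1658, 1642, 1382 and 1564 normalized counts against 1715, 1586, 1606 and 1673. The groups overlapped and the log2 fold change was -0.06 ± 0.06 (adjusted p = 0.36, edgeR).

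Of the secreted antagonists, both genes tested were higher in 4T1-Sca1+ cells. Notum encodes an enzyme that takes the lipid off WNT proteins and so inactivates them, and it is itself a target of beta-catenin in several tissues. Notum (ENSMUSG00000042988, chr11:120653788-120661175) had 171, 174, 235 and 221 normalized counts against 54.4, 69.8, 59.0 and 76.5, a log2 fold change of 1.64 ± 0.14 (adjusted p = 1.5e-08, edgeR). The groups stood far apart. The antisense genes Notumos and Myadml2os share 31.7% of the 50-base stretches of its longest transcript, so part of these reads could be theirs, and Notum too is in a signature (SCA1-positive) chosen on these libraries. Sfrp1, a secreted protein with a Frizzled-like domain that binds WNT proteins, had 547, 595, 561 and 558 normalized counts against 312, 299.8, 282 and 291. The libraries within a group lay close together, and the log2 fold change was 0.94 ± 0.06 (adjusted p = 7.4e-10, edgeR). Per kilobase, the antagonists summed to 196 to 226 in 4T1-Sca1+ libraries against 89.5 to 99.0, a ratio of 2.23 between the means. Dkk2 had 1 and 8 counts in all and Dkk3 1 and 0, with at most 3 in any library. Dkk1, Dkk4, Sfrp2, Sfrp4 and Sfrp5 were not analysed here.

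Of 8 Frizzled receptor genes tested, 4 were higher in 4T1-Sca1+ cells, none was called lower, and 4 were not called, a share called that lay below the 61.5% of all genes. The absence of lower calls did not hold with GC-corrected offsets, under which Fzd9 was lower (log2 fold change -0.44, adjusted p = 0.015, edgeR) and Fzd6 slightly higher (0.099, adjusted p = 0.023). Fzd1, Fzd2 and Fzd7, which form 1 subfamily by sequence, had the largest changes. Fzd1 (chr5:4753839-4758035) had 282, 270.2, 304 and 279 normalized counts against 154, 156, 134 and 132, a log2 fold change of 0.99 ± 0.08 (adjusted p = 2.2e-08). Fzd2 (chr11:102604396-102608058) had 505, 494, 642 and 494 against 325, 347, 279 and 283, a log2 fold change of 0.80 ± 0.09 (adjusted p = 8.1e-07). Fzd7 (chr1:59482424-59486955) had 1043, 1019, 1206 and 1111 against 691, 645, 661 and 659, a log2 fold change of 0.73 ± 0.06 (adjusted p = 9.4e-09). For none of the 3 did the groups overlap. 4T1-Sca1+ replicate 3 was the highest library of its group for each of them, as it was for 18 of the 35 WNT genes and for 35.1% of all tested genes.

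Fzd6, the most abundant Frizzled gene per kilobase, had 1795, 1789.8, 1780.4 and 1844 normalized counts against 1797, 1765, 1682 and 1770.4. The groups overlapped and the log2 fold change was 0.05 ± 0.04 (adjusted p = 0.31, edgeR). Fzd3 was higher by 0.30 ± 0.09 on the log2 scale (adjusted p = 0.011), with 223 ± 21.4 against 183 ± 17.3 normalized counts and overlapping groups. Fzd4 (112 ± 5.42 against 109 ± 19.0), Fzd5 (444 ± 45.7 against 424 ± 21.2) and Fzd9 (52.4 ± 12.2 against 58.2 ± 7.02) were not called. Fzd5 shares 16.6% of its 50-base stretches with the antisense gene Gm38058. Fzd8 and Fzd10 were not analysed here. Per kilobase, the Frizzled genes summed to 950 ± 48.1 in 4T1-Sca1+ and 746 ± 27.9 in 4T1-Sca1- cells, without overlap (906 to 1016 against 714 to 778). Of that sum Fzd6 made up 39.4% ± 2.08 against 48.8% ± 0.91, Fzd7 25.4% ± 0.67 against 19.6% ± 0.69, Fzd2 15.3% ± 1.36 against 11.3% ± 0.90, and Fzd1 7.12% ± 0.11 against 4.59% ± 0.27.

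**Figure D3:**
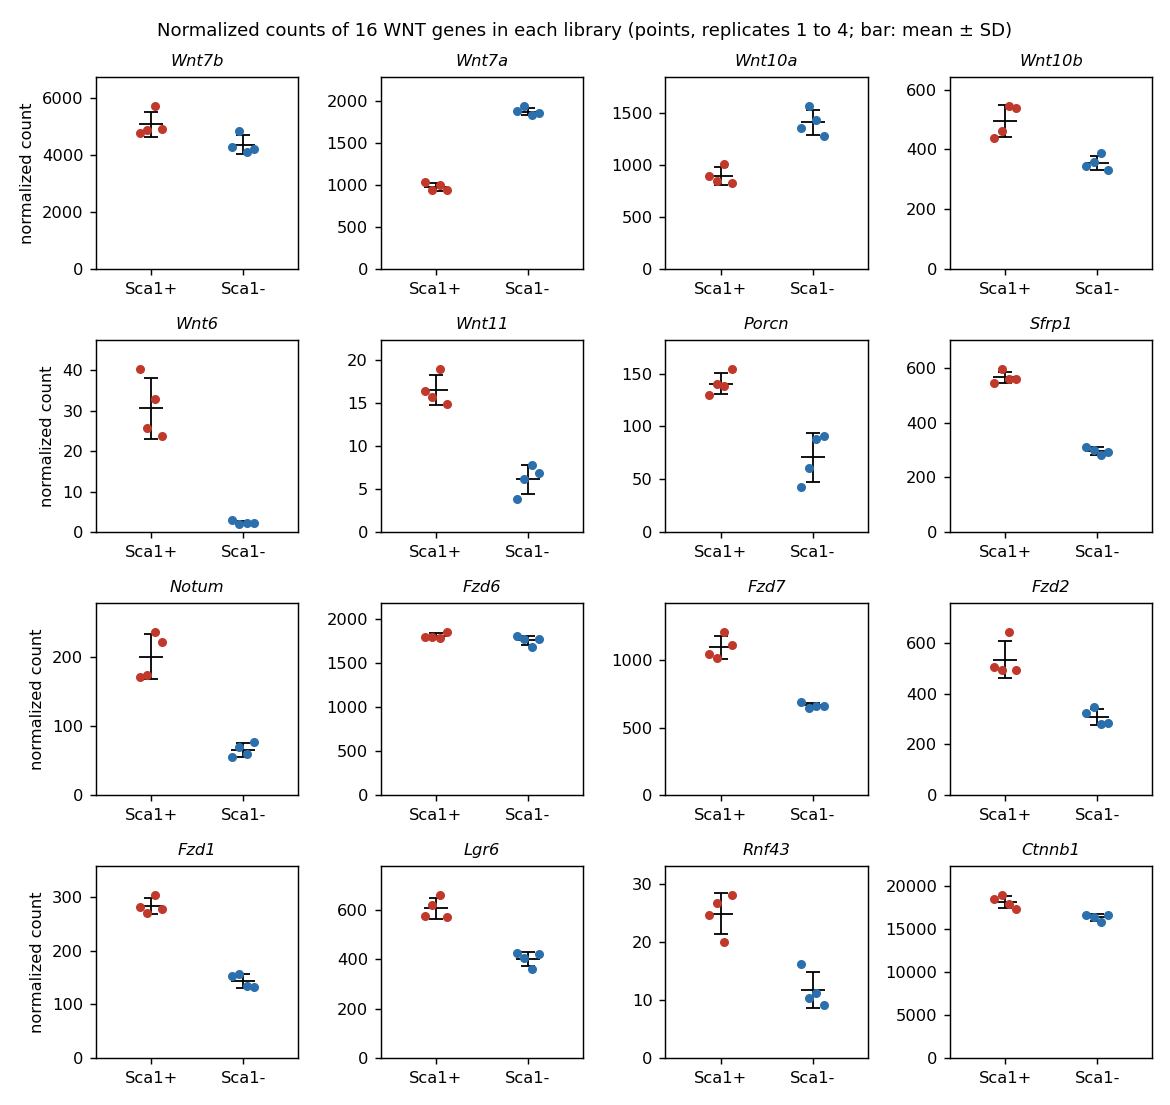
Normalized count (y axis, from 0) of 16 WNT genes in each 4T1-Sca1+ and 4T1-Sca1- library (points, n = 4 a group) with mean and SD. Wnt7a and Wnt10a are lower in every 4T1-Sca1+ library, Sfrp1, Notum, Fzd1, Fzd2 and Fzd7 are higher in every one, and the groups overlap for Wnt7b and Fzd6.

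The co-receptors differed little. Lrp5 had 3669, 3540.2, 3942 and 3505 normalized counts in 4T1-Sca1+ and 3324, 3624, 3439 and 3573 in 4T1-Sca1- libraries, overlapping groups with a log2 fold change of 0.08 ± 0.05 (adjusted p = 0.14, edgeR). Lrp6 had 1698, 1669.5, 1565 and 1637 against 1373, 1320.4, 1251 and 1345, and every 4T1-Sca1+ library was above every 4T1-Sca1- library. Its log2 fold change was 0.33 ± 0.05 (adjusted p = 1.4e-05, edgeR). Per kilobase Lrp5 remained the more abundant of the pair, at 376 ± 20.3 and 358 ± 13.9, with Lrp6 at 120 ± 4.19 and 96.7 ± 3.81.

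R-spondins hold Frizzled receptors at the surface by binding LGR4, LGR5 or LGR6 and taking away RNF43 and ZNRF3, the ubiquitin ligases that mark Frizzled proteins for removal. Lgr6 had 577, 620.3, 661 and 573 normalized counts in 4T1-Sca1+ and 425, 407, 363 and 421 in 4T1-Sca1- libraries. No 4T1-Sca1- library reached the 4T1-Sca1+ range, and the log2 fold change was 0.60 ± 0.07 (adjusted p = 6.6e-07, edgeR). Lgr4 (225 ± 22.7 against 215 ± 25.5) was not called, and Lgr5, a stem cell marker of the intestine, had 3 and 4 counts over the 4 libraries of each group. The ligases went opposite ways. Rnf43 had 24.7, 26.6, 19.9 and 28.0 normalized counts against 16.2, 10.3, 11.1 and 9.13, a log2 fold change of 1.08 ± 0.24 (adjusted p = 9.9e-04, edgeR). Znrf3 had 604, 623, 666 and 562 against 706, 676, 725 and 699, a log2 fold change of -0.18 ± 0.06 (adjusted p = 0.014, edgeR). Neither gene had overlapping groups, but the call of Znrf3 was lost with library totals alone (adjusted p = 0.056) and without 4T1-Sca1+ replicate 4 (adjusted p = 0.060). Per kilobase, Znrf3 was much the more abundant ligase, at 77.8 ± 5.49 and 88.8 ± 2.57, with Rnf43 at 3.78 ± 0.54 and 1.78 ± 0.48.

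The log2 fold changes of the 4 cytoplasmic WNT genes tested ran from -0.52 to 0.16. Ctnnb1, the gene of beta-catenin and the most abundant of all WNT genes tested, had 18404, 18901, 17825 and 17284 normalized counts in 4T1-Sca1+ and 16576, 16315, 15773 and 16595 in 4T1-Sca1- libraries. The groups did not overlap, but the log2 fold change was only 0.16 ± 0.04 (adjusted p = 0.0024, edgeR). Its RNA level does not give the amount of stable beta-catenin protein, which is set after translation. Ulk4, a gene counted on the opposite strand, shares 18.6% of the 50-base stretches of the longest Ctnnb1 transcript. It held 627 counts over all libraries, beside 76923 for Ctnnb1 in 4T1-Sca1+ and 61956 in 4T1-Sca1- libraries. Apc and Axin1, scaffolds of the complex that degrades beta-catenin, were lower, at 1612 ± 31.2 against 1957 ± 56.4 and 2549 ± 63.9 against 2913 ± 59.3 normalized counts. Their log2 fold changes were -0.27 ± 0.04 (adjusted p = 4.9e-05) and -0.18 ± 0.04 (adjusted p = 0.0013), and neither pair of groups overlapped. Nkd2, which binds Dishevelled and dampens the pathway, was at 20.1 ± 4.14 against 29.1 ± 3.08 (log2 fold change -0.52 ± 0.20, adjusted p = 0.036), a call lost in 9 of 18 alternatives, among them DESeq2 (adjusted p = 0.088).

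Axin2, the target gene most often used to read out canonical signalling, was near 0. It had 2.74, 0.99, 3.99 and 0.88 normalized counts in 4T1-Sca1+ and 0, 2.05, 2.23 and 1.14 in 4T1-Sca1- libraries, that is 9 and 5 counts, a ratio of 1.61 with a counting interval of 0.48 to 6.10. The groups overlapped, and this depth could not show a difference between the fractions. Nkd1, another target and an inhibitor, had 0 and 1 counts.

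Among the TCF/LEF factors, Tcf7 and Tcf7l1 made up most of the RNA. Tcf7, the most abundant per kilobase, had 239, 226, 251 and 223 normalized counts against 222, 239, 214 and 233, overlapping groups with a log2 fold change of 0.06 ± 0.08 (adjusted p = 0.51, edgeR). Lef1 had 18.3, 18.7, 17.0 and 22.8 against 13.4, 13.3, 12.2 and 7.99. The groups did not overlap, and the log2 fold change was 0.71 ± 0.25 (adjusted p = 0.020, edgeR), a call lost with DESeq2 (adjusted p = 0.069), without 4T1-Sca1+ replicate 4 (0.063) and without 4T1-Sca1- replicate 4 (0.072). Tcf7l2 was at 165 ± 7.29 against 197 ± 33.4 (log2 fold change -0.25 ± 0.11, adjusted p = 0.048), and 12 of 18 alternatives lost that call. Tcf7l1, which often acts as a repressor, was at 241 ± 15.4 against 270.4 ± 23.2 and was not called (log2 fold change -0.15 ± 0.08, adjusted p = 0.11). It was lower with GC-corrected offsets (-0.36, adjusted p = 2.3e-04) and without 4T1-Sca1- replicate 4 (-0.21, adjusted p = 0.035).

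The rest of the pathway was read from 5 lists of other genes, with 130 symbols, of which 115 were counted and 93 tested. Of these 93, 45 were higher and 28 lower in 4T1-Sca1+ cells and 20 were not called, 78.5% called beside 61.5% of all genes, with a median log2 fold change of 0.15. The lists were written with earlier results of these data known. The 45 include Dact3 and Cxxc4, which passed the low-count filter only through the 4T1-Sca1+ group. The share called is therefore no support for a difference from all genes. Of 6 genes in the list named secreted modulators, which also holds membrane proteins such as Trabd2b, 5 were higher and 1 was lower. Of 17 co-receptors and planar polarity genes, 10 were higher and 5 lower. Of 28 genes of the destruction complex and Dishevelled, 12 were higher and 8 lower. Of 19 nuclear partners of beta-catenin, 9 were higher and 6 lower, and of 23 genes often used as beta-catenin targets, 9 were higher and 8 lower. Those targets had a median log2 fold change of 0.0088.

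The 5 largest increases were those of Trabd2b, Tle2, Tnfrsf19, Dact3 and Cxxc4. Trabd2b, a membrane protease that clips WNT ligands and inactivates them, had 122 to 138 normalized counts in 4T1-Sca1+ and 30.8 to 41.1 in 4T1-Sca1- libraries (log2 fold change 1.83 ± 0.13, adjusted p = 1.4e-09, edgeR). Tle2, a Groucho co-repressor that binds TCF/LEF factors, had 126 to 212 against 39.0 to 50.6 (1.83 ± 0.16, adjusted p = 4.2e-08). Dact3 and Cxxc4, which bind and restrain Dishevelled, were at 17.7 ± 2.66 against 6.39 ± 1.78 and 19.6 ± 4.15 against 7.72 ± 3.46 normalized counts. Their log2 fold changes were 1.47 ± 0.29 and 1.37 ± 0.32, and both passed the low-count filter only through the 4T1-Sca1+ group. Tnfrsf19, a receptor of the TNF family and a beta-catenin target in some tissues, had 546 to 634 against 168 to 206 (1.63 ± 0.08, adjusted p = 8.5e-12). None of these 5 had overlapping groups.

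The 2 genes lower by at least 2-fold were Ror1 and Ccn1. Ror1, a receptor tyrosine kinase that binds WNT5A, had 23.6 to 32.9 normalized counts in 4T1-Sca1+ and 64.6 to 80.1 in 4T1-Sca1- libraries (log2 fold change -1.38 ± 0.16, adjusted p = 6.1e-07, edgeR), opposite in direction to its ligand gene Wnt5a. Ccn1, a secreted matrix protein that also answers to YAP, had 4952 to 5288 against 11611 to 12111 (-1.21 ± 0.04, adjusted p = 1.2e-13). Trabd2b, Tle2 and Tnfrsf19 are in the study's SCA1-positive and Ror1 and Ccn1 in its SCA1-negative signature, both chosen on these libraries. Chosen after their values were seen, the widely used targets Ccnd1 and Myc also parted, with 37133 ± 1729 against 27574 ± 795 normalized counts for Ccnd1 (log2 fold change 0.44 ± 0.04, adjusted p = 8.5e-08) and 4236 ± 169 against 5199 ± 144 for Myc (-0.28 ± 0.04, adjusted p = 2.1e-05).

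**Figure D4:**
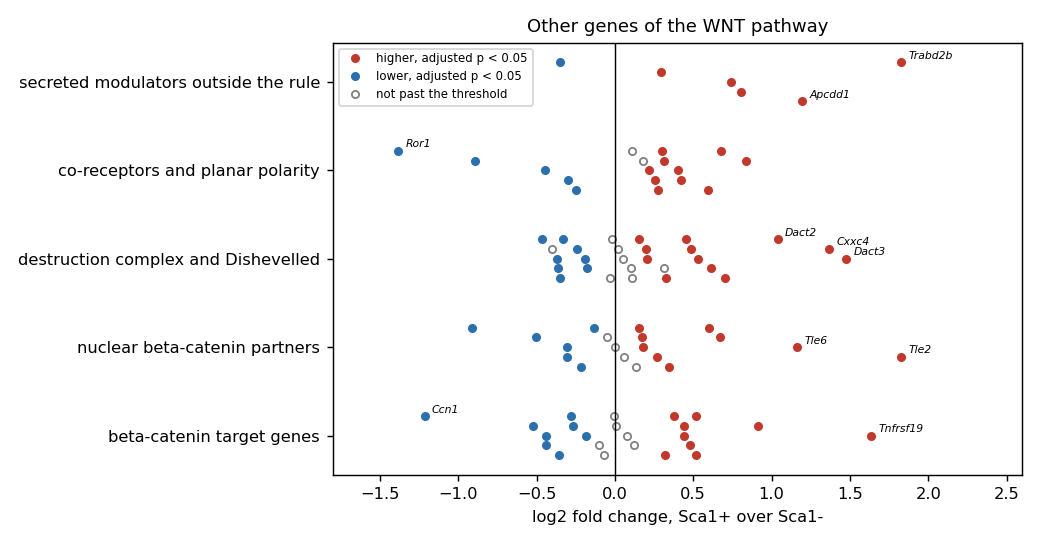
Log2 fold change, 4T1-Sca1+ over 4T1-Sca1-, of 93 other genes of the WNT pathway (points) in 5 lists (y axis), coloured by edgeR call. Points at or beyond a called log2 fold change of 1 are named: 8 higher, led by Trabd2b and Tle2 at 1.83, and 2 lower, Ror1 at -1.38 and Ccn1 at -1.21. Dact3 and Cxxc4 among the 8 passed the low-count filter only through the 4T1-Sca1+ group.

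Promoter sequence was looked at for the WNT genes with a window. RefSeq windows on GRCm38.p6, from 250 bases before to 50 after a start, were found for 37 of the 57 genes, 47 windows in all. Of the genes called at 1.5-fold or more, Notum, Sfrp1, Porcn, Fzd2, Wnt5a and Wnt10a had no window. Both strands were searched for the TCF/LEF letters CTTTGAT and CTTTGTT, the GC box GGGCGG and the letters of the TATA box, TATAAA. Of these, CTTTGAT was in 3.73% and CTTTGTT in 5.85% of all 32851 windows, and either in 9.33%, and 6 of the 47 WNT windows held one (Wnt3, Wnt5b, Wnt11, Fzd7, Dkk1 and Tcf7l2). The GC box was in 35.7% of all windows and in 33 of the 47, and the TATA box in 13.6% and in 8 of the 47. Such matches describe the letters and are not binding sites.

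The 250 bases before the start are printed for the ligand that fell most (Wnt7a), the 2 ligands with rises and windows of unlike makeup (Wnt6 and Wnt11), and 2 Frizzled genes that rose together (Fzd1 and Fzd7). All are written 5′ to 3′ on the strand of the gene, and capitals mark matches to the motifs above on either strand. Wnt7a is chr6:91411354-91411603 on the minus strand, Wnt6 chr1:74771642-74771891 on the plus strand, Wnt11 chr7:98834862-98835111 on the plus strand, Fzd1 chr5:4758217-4758466 on the minus strand and Fzd7 chr1:59481897-59482146 on the plus strand.
Wnt7a: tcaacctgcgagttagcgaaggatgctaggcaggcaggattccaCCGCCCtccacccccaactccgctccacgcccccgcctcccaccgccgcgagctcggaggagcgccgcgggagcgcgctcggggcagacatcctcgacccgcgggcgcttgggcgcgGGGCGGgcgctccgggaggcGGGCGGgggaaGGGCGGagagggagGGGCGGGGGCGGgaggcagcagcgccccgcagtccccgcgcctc
Wnt6: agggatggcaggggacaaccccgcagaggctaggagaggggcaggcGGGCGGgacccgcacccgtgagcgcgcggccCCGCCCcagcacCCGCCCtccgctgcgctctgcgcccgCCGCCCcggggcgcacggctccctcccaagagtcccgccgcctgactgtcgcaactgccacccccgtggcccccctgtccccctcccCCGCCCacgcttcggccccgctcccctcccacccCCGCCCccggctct
Wnt11: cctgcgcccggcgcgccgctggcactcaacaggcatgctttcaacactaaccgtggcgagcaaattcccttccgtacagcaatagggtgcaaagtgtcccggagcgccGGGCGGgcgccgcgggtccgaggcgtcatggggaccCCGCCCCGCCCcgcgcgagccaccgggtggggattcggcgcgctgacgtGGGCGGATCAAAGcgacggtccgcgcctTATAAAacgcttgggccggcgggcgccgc
Fzd1: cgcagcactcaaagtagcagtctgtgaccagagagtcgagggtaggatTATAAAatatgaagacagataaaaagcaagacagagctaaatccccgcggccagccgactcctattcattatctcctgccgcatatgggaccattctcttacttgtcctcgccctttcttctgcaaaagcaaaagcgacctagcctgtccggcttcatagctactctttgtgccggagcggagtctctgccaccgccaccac
Fzd7: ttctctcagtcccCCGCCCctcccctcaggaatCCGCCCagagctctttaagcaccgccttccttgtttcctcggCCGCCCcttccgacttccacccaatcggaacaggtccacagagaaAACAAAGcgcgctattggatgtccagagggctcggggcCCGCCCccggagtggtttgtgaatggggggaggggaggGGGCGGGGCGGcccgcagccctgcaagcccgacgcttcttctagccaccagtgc

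The printed genes were picked with their changes known, and a link between these letters and the changes was not tested. The Wnt7a and Wnt6 stretches held 6 GC boxes each, no TCF/LEF letters and no TATA box, with a GC content of 77.6% and 79.6%. The printed Wnt11 stretch held 4 GC boxes, one of which runs straight into TCF/LEF letters that begin 51 bases before the start on the other strand, and a TATA box 29 bases before the start. The 250 bases before another Wnt11 start, chr7:98838595-98838844, held none of these motifs. The Fzd1 and Fzd7 stretches differed in these letters. Fzd7 held 6 GC boxes, 2 of them overlapping, and TCF/LEF letters 130 bases before the start, with 65.2% GC, whereas Fzd1 held neither, only TATAAA letters 202 bases before the start, with 51.2% GC.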

How the data were processed

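RNA of 4 4T1-Sca1+ and 4 4T1-Sca1- samples was made into TruSeq v2 libraries, a kit that does not mark strand, and sequenced on an Illumina NextSeq. The submitters' processing notes name cutadapt 1.16 and STAR 2.5.3a with GRCm38/mm10. The counter and annotation are not given in the sources used here. The authors deposited raw counts per Ensembl gene (16341 genes) and a normalized signal table (15372 genes), whose values equal the counts divided by DESeq2 size factors to a relative difference of at most 4.96e-15. No row lacked a gene.

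Members, gene lists and alternatives were chosen with earlier results of these data known. Symbols, positions and exon lengths came from GENCODE M21 (GRCm38), which held 16202 of the counted genes. Deposited counts were tested with edgeR 4.0.16 in R 4.3.3: filterByExpr, TMM, a two-sided quasi-likelihood test with no covariate, and Benjamini-Hochberg adjustment over 11717 genes at 0.05. Intervals of count ratios are exact binomial at 95%, and intervals and the floor of 3 counts per library cover counting error only, since PCR copies carry no molecular identifiers and need not be separate molecules. Normalized counts per kilobase used the union of a gene's exons.

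Values per library are given for genes called at 1.5-fold or more, for Ctnnb1, Axin2, Lef1, Lrp5 and Lrp6, and for the most abundant gene per kilobase of each role. Other pathway genes are named where called and changed by 1 or more on the log2 scale, at most 5 in each direction. Alternatives were other scalings, GC-corrected offsets, other filters, DESeq2 1.42.0, limma 3.58.1 (voom, or log2(value + 1) of the deposited signal), a replicate block, stricter thresholds and leaving out each library. The edgeR step was tested on simulated data. Replicate numbers were not taken to pair the samples in the main test. Wnt5a, Fzd6, Lef1, Axin2 and Tcf7l1 also overlap antisense genes, with which their reads could be mixed.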

Additional observations from a re-analysis of the deposited data

Results flagged for a closer look

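In 4 of 70 groups of 4 libraries (35 WNT genes in both fractions), 1 library lay far from the other 3 by Dixon's test at 95%. Chance at 1 in 20 would give 3.5, so the number of such groups is close to that of chance. Fzd2 had 642 normalized counts in 4T1-Sca1+ replicate 3 and 494 to 505 in the other 3. Wnt7b had 5695 in the same library and 4761 to 4912 in the others. Nkd2 had 26.3 in 4T1-Sca1+ replicate 4 and 17.8 to 18.3 in the others. Wnt9a had 174 in 4T1-Sca1- replicate 2 and 137 to 141 in the others.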

How the results depend on the processing

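Of 625 values of single WNT genes recomputed under the alternatives, 589 kept their direction and side of the threshold, 27 lost and 5 gained a call and 4 changed sign, and 23 of the 35 genes were stable in every alternative that gave them a value. The sign changes were in genes without a call: Fzd4 (-0.063 without 4T1-Sca1- replicate 3, range over left-out libraries -0.063 to 0.10), Wnt9a (0.030 without 4T1-Sca1- replicate 2, range -0.088 to 0.030), and with GC-corrected offsets Lrp5 (-0.0070) and Wls (0.042), as log2 fold changes. A minimum absolute log2 fold change of 1 left 6 WNT genes higher and 0 lower, and 8 and 2 of the other pathway genes. Of all genes, 612 and 103 were left, 6.1% of those tested. Wnt5a, Wnt6, Wnt11 and Rnf43 among the 6 passed the low-count filter only through the 4T1-Sca1+ group. Dact3 and Cxxc4 among the 8 did so too. These splits are therefore no support for a direction. With library totals alone 4 WNT genes were lower, and with an adjusted p under 0.01 also 4, beside 15 higher. Leaving out 1 library gave 16 to 17 WNT genes higher and 5 to 8 lower, the 8 without 4T1-Sca1- replicate 4. With at least 10 counts in every library, 12 of the 30 WNT genes left were higher and 6 lower, and the 5 that dropped out (Wnt5a, Wnt6, Wnt11, Rnf43 and Lef1) had all been called higher. The cause of these shifts was not tested, except that this filter and the leave-out fits use fewer genes or samples.

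Same-numbered libraries of the fractions deviated together with correlations of 0.0957, -0.150, -0.0339 and -0.0011, so the numbers do not pair them. The replicate block gave 17 WNT genes higher and 6 lower, 44 and 27 other pathway genes, and 3605 and 3452 of all genes. Low counts limit Axin2, Wnt1 and the 8 WNT genes with at most 3 counts in every library.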
